A study of Mus musculus with 12 samples.

Results

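The genes described here are 37 markers of lung epithelium, taken by symbol from a table of raw read counts with 22738 gene rows. They comprised 10 genes of alveolar type 2 cells, 8 of alveolar type 1 cells, 7 of the conducting airway and 12 general epithelial genes (keratins, E-cadherin, EpCAM, claudins and 2 regulators). Bulk RNA-seq was performed on dissected, flash-frozen lung tumours of mice that carry Rb1 fl/fl, p53 (Trp53) fl/fl and a Cre-activated Myc T58A allele. All 12 libraries came from tumours induced with Ad5CGRP-Cre, an adenovirus given into the trachea in which the promoter of a neuroendocrine gene drives Cre; an age at induction of 8 weeks is given for an initial cohort. The combination group received both agents below. The entinostat group received an inhibitor of class I histone deacetylases by mouth at 15 mg/kg daily for 28 days. The anti-PD-1 group received an antibody against an inhibitory receptor of T cells, injected at 10 mg/kg 2 times a week for 4 weeks. The control group is named only as such; methylcellulose vehicle and a rat isotype antibody served as controls in the study, but which of them these tumours had is not stated. Each group had 3 libraries. The count columns carry a different number for each library, but what it numbers is not stated and nor are separate mice, and p-values therefore measure only the variation among the samples at hand, which may be technical.

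Gas exchange surfaces of the lung are lined by flat type 1 cells and by type 2 cells, which make surfactant and can renew the type 1 cells. The airways are lined by secretory (club), ciliated, mucous and basal cells, and rare neuroendocrine cells sit among them. Small cell lung cancer is a neuroendocrine tumour that can show simple keratins, E-cadherin and EpCAM itself, whereas surfactant proteins and secretoglobins are made chiefly by the normal lining. In bulk tissue, fewer cells of a type and less RNA per cell cannot be told apart.

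Promoters were looked up for the members in the RefSeq table of build GRCm38.p6, which held 25 of the 37. Motifs were searched on both strands in the 250 bases before the start of each gene. CTCAAG, a sequence bound by the lung epithelial regulator NKX2-1, was present in 4 of the 25 members (Sftpb, Sftpa1, Hopx and Scgb3a1) and in 13.3% of all 32851 windows. CACCTG, the E-box bound by the epithelial repressors of the ZEB and SNAI families, was present in 9 of the 25 (Abca3, Cav1, Krt5, Krt7, Krt8, Krt18, Epcam, Cldn4 and Cldn7) and in 17.2% of all windows. TGTTTAC, a forkhead factor sequence, was present in 3 (Lamp3, Etv5 and Pdpn) and in 3.17% of windows. Neither AACCGGTT (present in 0.116% of all windows) nor the shorter ACCGGTT that it contains (0.831%), sequences bound by grainyhead-like factors such as the one encoded by Grhl2, was found in the 25 windows. Shown here, 5′ to 3′ on the strand of the gene, are the 250 bases before the start of 2 surfactant genes that varied widely and together between libraries, of Abca3, a type 2 gene whose level hardly varied, and of Epcam. Capitals mark CTCAAG in the first pair and CACCTG or its reverse complement in the second pair.
Sftpb, chr6:72304360-72304609, plus strand: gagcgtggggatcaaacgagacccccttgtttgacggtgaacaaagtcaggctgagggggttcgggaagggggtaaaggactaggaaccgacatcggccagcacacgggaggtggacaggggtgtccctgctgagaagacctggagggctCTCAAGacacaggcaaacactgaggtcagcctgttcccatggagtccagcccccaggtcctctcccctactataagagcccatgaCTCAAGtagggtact
Sftpa1, chr14:41131538-41131787, plus strand: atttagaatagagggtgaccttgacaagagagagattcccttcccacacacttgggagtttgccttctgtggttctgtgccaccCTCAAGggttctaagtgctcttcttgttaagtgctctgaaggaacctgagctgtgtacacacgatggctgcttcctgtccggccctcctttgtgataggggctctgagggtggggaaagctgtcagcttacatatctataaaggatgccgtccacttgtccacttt
Abca3, chr17:24351773-24352022, plus strand: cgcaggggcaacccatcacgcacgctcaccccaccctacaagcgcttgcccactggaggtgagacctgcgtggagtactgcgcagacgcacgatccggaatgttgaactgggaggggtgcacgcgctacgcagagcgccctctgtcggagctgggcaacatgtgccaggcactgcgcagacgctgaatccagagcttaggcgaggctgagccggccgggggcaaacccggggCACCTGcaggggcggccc
Epcam, chr17:87635729-87635978, plus strand: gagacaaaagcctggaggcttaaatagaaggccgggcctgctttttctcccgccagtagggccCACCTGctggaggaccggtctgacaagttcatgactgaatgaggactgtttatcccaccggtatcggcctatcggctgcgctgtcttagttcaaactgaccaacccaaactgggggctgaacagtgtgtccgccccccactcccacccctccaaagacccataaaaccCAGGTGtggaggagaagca
A match describes letters in a window and is not evidence of binding.

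The libraries held 31295987 to 36146798 counts in the combination group, 31987261 to 40469275 with entinostat, 34107018 to 37076865 with anti-PD-1 and 40534618 to 54001886 in the control group. The structural RNAs Rpph1, Rn45s and Rmrp took 17.7% to 18.0% of a library in the combination, 15.2% to 19.3% with entinostat, 20.5% to 36.4% with anti-PD-1 and 7.84% to 13.2% in controls. Every treated library was thus above every control in this share. Levels below are CPM (counts relative to the library total, scaled by TMM factors). The factors were 1.10 to 1.16 in the combination, 1.02 to 1.12 with entinostat, 0.815 to 0.893 with anti-PD-1 and 0.946 to 0.986 in controls. The part of these differences in the comparisons against control was not tested. The summed level of 9 neuroendocrine markers of the tumour (Neurod1, Insm1, Chga, Chgb, Syp, Calca, Uchl1, Ddc and Resp18) lay between 328 and 1721 CPM in every library, and Nkx2-1, which marks both lung epithelium and this tumour type, between 22.8 and 101 CPM. The 37 epithelial genes together took from 0.0122% to 0.129% of the counts of a library. Control library 1, anti-PD-1 library 1 and control library 3 had the lowest alveolar type 2 scores (mean log2 CPM of Sftpc, Sftpb, Sftpa1, Sftpd, Lamp3, Abca3, Napsa and Slc34a2), at −2.12, −0.14 and 0.24. Combination library 3 was next at 1.74, and the remaining libraries lay between 3.35 and 5.71. Control library 2, at 5.04, was thus far from the rest of its group, and counts of calls, medians and named values that moved without it are given both ways below.

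**Figure D1:**
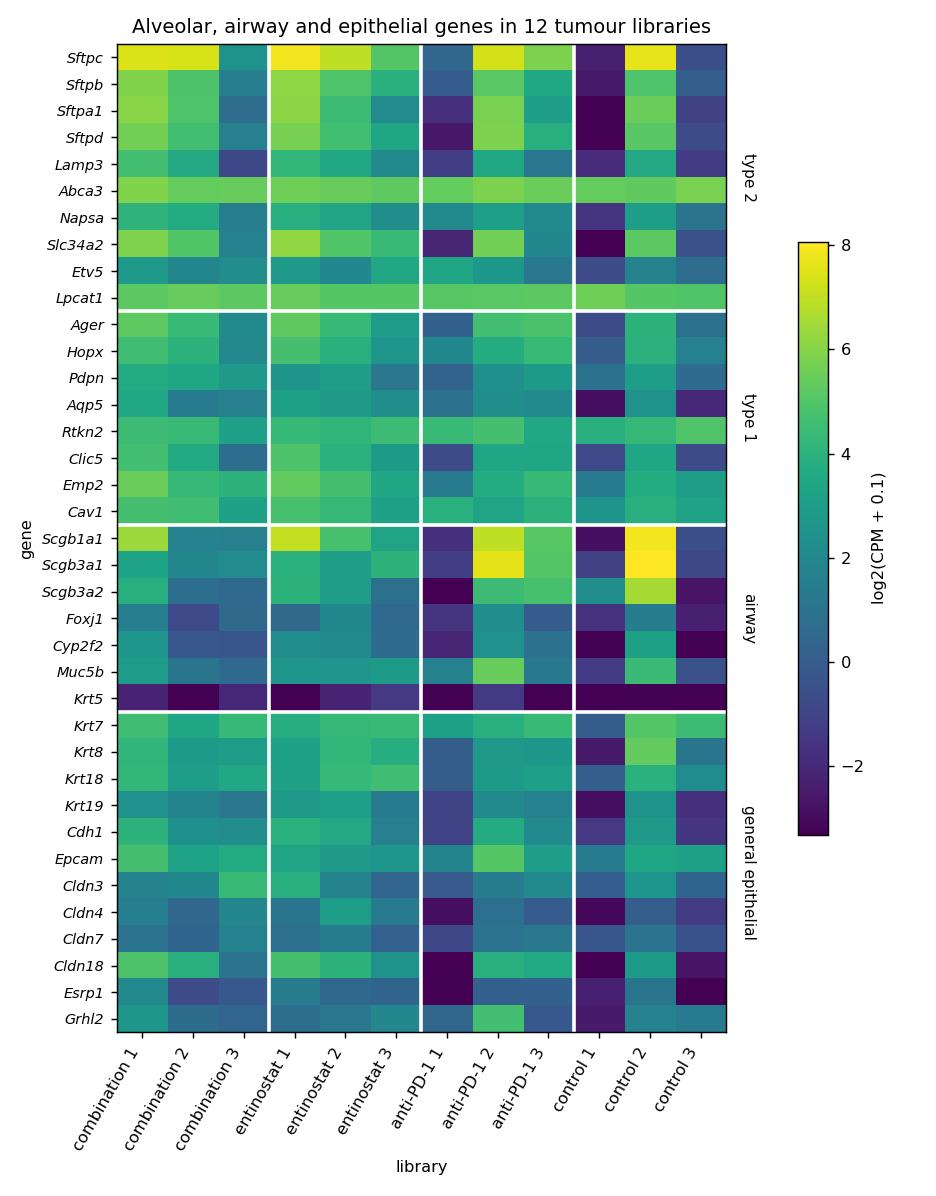
Levels of all 37 members in the 12 libraries, as log2(CPM + 0.1), with members in rows by cell type and libraries in columns by group. Control libraries 1 and 3 and anti-PD-1 library 1 are dark for most members, while Abca3, Lpcat1 and Rtkn2 are bright in every library.

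The alveolar type 2 genes separated into 2 patterns, those that varied by orders of magnitude between libraries and those that hardly varied. Sftpc, which encodes surfactant protein C and is a defining gene of type 2 cells, had 179, 165 and 5.45 CPM in combination libraries 1, 2 and 3, then 237, 127 and 32.8 CPM in entinostat libraries, 1.24, 164 and 55.7 CPM in anti-PD-1 libraries, and 0.0979, 201 and 0.557 CPM in control libraries. Every treated group overlapped with the controls, because control library 2 was among the highest of all. Group means were 116 ± 96.3 CPM in the combination, 132 ± 102 CPM with entinostat, 73.5 ± 82.6 CPM with anti-PD-1 and 67.3 ± 116 CPM in the control group (SD, n = 3 each). Slc34a2, the sodium-dependent phosphate carrier of the type 2 cell surface, showed the same order of libraries within each group as Sftpc. Its values were 58.1, 31.0 and 3.09 CPM in the combination, 73.1, 31.8 and 20.3 CPM with entinostat, 0.134, 49.2 and 3.81 CPM with anti-PD-1, and 0, 37.2 and 0.607 CPM in controls. A count of 0 in control library 1 allows up to 3 counts there, for counting error only. Sftpb, whose protein is needed for the surfactant film, and Sftpa1 and Sftpd, which encode the collectins of surfactant, were likewise highest at 70.5, 67.5 and 56.1 CPM and at or under 0.0783 CPM in control library 1. Lamp3, a membrane protein of the lamellar bodies that store surfactant, ranged from 0.176 to 25.6 CPM. Napsa, the protease napsin A, ranged from 0.235 to 17.0 CPM.

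Abca3, the lipid transporter of lamellar bodies, did not follow its list. It had 60.6, 40.9 and 42.3 CPM in the combination, 47.7, 42.8 and 37.9 CPM with entinostat, 41.0, 57.3 and 43.8 CPM with anti-PD-1, and 41.8, 39.6 and 55.0 CPM in controls. The highest library was thus 1.6 times the lowest, where for Sftpc that ratio was 2418. Lpcat1, which makes the main phospholipid of surfactant, was as even. It had 36.8, 42.6 and 36.6 CPM in the combination, 43.0, 33.2 and 32.9 CPM with entinostat, 34.0, 35.6 and 37.05 CPM with anti-PD-1, and 46.7, 33.2 and 31.4 CPM in controls. Its highest value was in control library 1, where Sftpc was lowest. Etv5, a transcription factor that maintains mouse type 2 cells, followed neither pattern, with 6.97, 3.62 and 4.78 CPM in the combination, 7.06, 3.92 and 11.1 CPM with entinostat, 10.6, 6.56 and 2.30 CPM with anti-PD-1, and 0.509, 3.31 and 1.57 CPM in controls. All combination and entinostat libraries were above all controls for this gene, while anti-PD-1 library 3 was below control library 2.

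Among the alveolar type 1 genes, Ager, the receptor that marks type 1 cells in the lung, varied with the surfactant genes, whereas Rtkn2 did not. Ager had 38.2, 20.4 and 4.17 CPM in the combination, 39.2, 20.0 and 7.88 CPM with entinostat, 1.07, 24.9 and 28.0 CPM with anti-PD-1, and 0.528, 16.6 and 1.77 CPM in controls. Rtkn2, used as a marker of type 1 cells, had 22.2, 20.2 and 8.97 CPM in the combination, 19.5, 17.4 and 22.6 CPM with entinostat, 20.9, 26.0 and 11.2 CPM with anti-PD-1, and 14.3, 19.0 and 30.4 CPM in controls. The highest Rtkn2 library was control 3, 1 of the 3 with the lowest type 2 scores. Emp2, a membrane protein of type 1 cells, had 44.7, 20.0 and 16.2 CPM in the combination, 40.0, 26.3 and 10.6 CPM with entinostat, 2.57, 13.1 and 20.0 CPM with anti-PD-1, and 2.58, 13.1 and 8.22 CPM in controls. All combination libraries were above all controls for Emp2, and the entinostat libraries were not. Cav1, the caveolar protein that endothelium also makes, had 26.5, 24.1 and 9.12 CPM in the combination, 26.7, 19.2 and 9.10 CPM with entinostat, 15.4, 10.0 and 16.0 CPM with anti-PD-1, and 5.79, 14.5 and 9.31 CPM in controls. Its groups overlapped throughout. The cofactor Hopx (0.939 to 26.3 CPM), the chloride channel protein Clic5 (0.470 to 29.1 CPM), the water channel Aqp5 (0.0391 to 11.4 CPM) and the surface glycoprotein Pdpn (1.14 to 12.6 CPM) were each highest in entinostat library 1 or combination library 1.

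The airway genes had their highest values in libraries without entinostat. Scgb1a1, the club cell secretoglobin, had 82.3, 3.22 and 3.04 CPM in the combination, 129, 27.0 and 9.84 CPM with entinostat, 0.201, 127 and 34.7 CPM with anti-PD-1, and 0.0391, 232 and 0.557 CPM in controls. Scgb3a1, a related secretoglobin, had 9.58, 3.60 and 4.45 CPM in the combination, 15.2, 8.02 and 16.5 CPM with entinostat, 0.334, 192 and 32.7 CPM with anti-PD-1, and 0.372, 269 and 0.455 CPM in controls. For both genes the values without entinostat enclosed those with it, with 3 libraries near 0 and control library 2 and anti-PD-1 library 2 at or near the top. Scgb3a2, another secretoglobin, had 14.4, 1.66 and 1.41 CPM in the combination, 16.6, 8.08 and 1.74 CPM with entinostat, 0, 22.3 and 27.1 CPM with anti-PD-1, and 4.81, 93.1 and 0.0506 CPM in controls. Muc5b, a gel-forming airway mucin, had 7.86, 1.96 and 1.38 CPM in the combination, 6.22, 6.09 and 7.36 CPM with entinostat, 3.11, 42.3 and 2.36 CPM with anti-PD-1, and 0.294, 21.6 and 0.607 CPM in controls. Cyp2f2, a cytochrome of club cells, reached 8.80 CPM in control library 2, and Foxj1, the regulator of cilia, reached 4.69 CPM in anti-PD-1 library 2. Krt5, the keratin of basal cells, had at most 9 counts in a library and was not tested.

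Among the general epithelial genes the simple keratins were present in most libraries. Krt7 had 23.8, 10.1 and 20.0 CPM in the combination, 13.7, 19.0 and 21.0 CPM with entinostat, 8.89, 14.2 and 20.6 CPM with anti-PD-1, and 0.939, 32.6 and 22.2 CPM in controls. Only control library 1 was low for Krt7; control library 3, with little alveolar RNA, was among the 3 highest. Krt8, a keratin of simple epithelia, had 18.0, 7.32 and 7.99 CPM in the combination, 9.21, 18.3 and 13.5 CPM with entinostat, 0.936, 6.78 and 6.65 CPM with anti-PD-1, and 0.0783, 40.4 and 2.07 CPM in controls. Its filament partner Krt18 had 18.7, 7.90 and 11.4 CPM in the combination, 9.12, 19.4 and 23.5 CPM with entinostat, 0.936, 7.34 and 8.64 CPM with anti-PD-1, and 0.998, 15.6 and 4.55 CPM in controls. The ratio of Krt8 to Krt18 counts was 2.59 in control library 2 and at most 1.01 in the other libraries with at least 100 counts of both. Epcam, an adhesion molecule of epithelia and of many carcinomas, had 25.7, 9.78 and 12.9 CPM in the combination, 10.1, 7.06 and 6.32 CPM with entinostat, 3.38, 33.1 and 8.16 CPM with anti-PD-1, and 2.39, 10.6 and 8.96 CPM in controls. Its highest value was in anti-PD-1 library 2, as was that of Grhl2, a transcription factor that maintains epithelial identity, at 25.5 CPM against at most 6.43 CPM elsewhere. Cldn4, a tight junction claudin, had 2.92, 1.26 and 3.82 CPM in the combination, 2.02, 8.23 and 2.44 CPM with entinostat, 0.0334, 1.69 and 0.906 CPM with anti-PD-1, and 0.0196, 0.993 and 0.304 CPM in controls. All combination and entinostat libraries were above all controls for Cldn4. Cldn3, another claudin, was highest in combination library 3, at 21.1 CPM, where Sftpc was 5.45 CPM. The claudin Cldn18, whose lung form belongs to the alveolar lining, ranged from 0 to 29.2 CPM, E-cadherin (Cdh1) from 0.253 to 16.5 CPM, Krt19 from 0.0391 to 8.46 CPM, the splicing regulator Esrp1 from 0 to 4.09 CPM and Cldn7 from 0.435 to 3.12 CPM.

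Compared per kilobase of annotated exon, so that genes of different length can be ranked, the members with the highest mean level over the 12 libraries were Scgb1a1 at 114, Sftpc at 94.1, Scgb3a1 at 77.0, Scgb3a2 at 18.1 and Sftpb at 12.2 CPM per kb. By the median over libraries, which a single high library moves less, the order was Sftpc at 88.1, Scgb1a1 at 38.7, Scgb3a1 at 14.7 and Sftpb at 11.2 CPM per kb. The spread over 12 libraries was far wider for these genes than for most. The SD of log2 CPM had a median of 2.87 over the 6 tested airway genes, 2.70 over the 10 type 2 genes, 1.94 over the 12 general epithelial genes and 1.38 over the 8 type 1 genes, against 0.54 over all 17426 tested genes. The 3 libraries with the lowest type 2 scores were also the 3 lowest for 25 of the 36 tested members, among them 6 of 10 type 2, 6 of 8 type 1, 4 of 6 airway and 9 of 12 general epithelial genes. All 6 of these type 2 genes belong to the score that picked the libraries, so their part of the count was largely fixed by that choice. The same count over all tested genes was not made. Control library 1 alone was lowest, or tied for lowest, for 23 members.

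**Figure D2:**
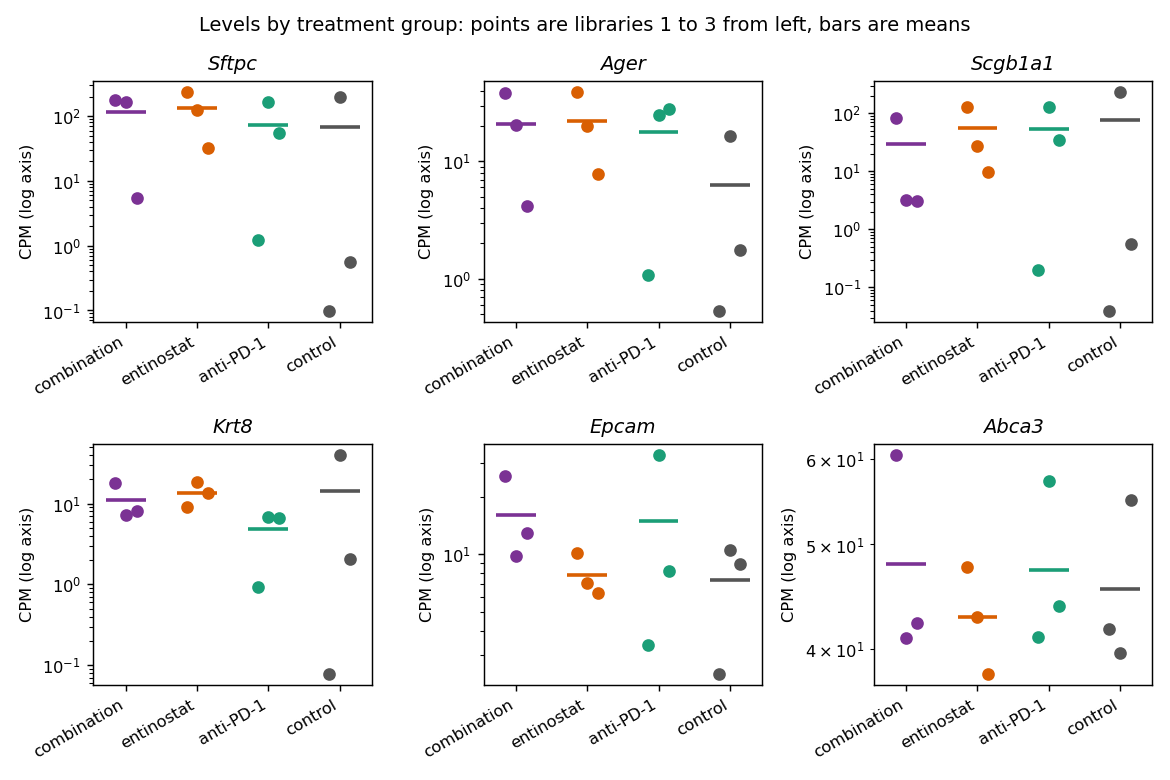
Levels of Sftpc, Ager, Scgb1a1, Krt8, Epcam and Abca3 by group on log axes in CPM, with points for libraries 1 to 3 from left to right and bars for group means. Within the control group the highest Sftpc library (201 CPM) and the lowest (0.0979 CPM) span nearly the whole range seen, while Abca3 stays between 37.9 and 60.6 CPM in all libraries.

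Treatment groups were compared with edgeR's quasi-likelihood test, with p-values adjusted by Benjamini-Hochberg over all 17426 tested genes and a threshold of 0.05. The 3 comparisons against control share the same 3 control libraries. Counts at an unadjusted p under 0.05, here and below, are given without the share of all genes at that cut. They therefore do not show whether the members lie above or below that share. For the combination against control, none of the 36 tested members passed, where 11.7% of all tested genes did, 3.88% higher and 7.78% lower; 1 member (Emp2) had an unadjusted p under 0.05, and DESeq2 called none. For entinostat against control, none passed, where 5.27% of all genes did, 1.3% higher and 3.98% lower; 3 members (Etv5, Cldn4 and Emp2) had an unadjusted p under 0.05, and DESeq2 called 2 (Cldn4 and Etv5). For anti-PD-1 against control, none passed, where 0.00574% of all genes did; 1 member (Etv5) had an unadjusted p under 0.05, and DESeq2 called none. The entinostat main effect, which averages the effect of entinostat without and with the antibody, called none of the members and 10.6% of all genes, 3.87% higher and 6.74% lower; 2 members (Cldn4 and Emp2) had an unadjusted p under 0.05, and DESeq2 called the same 2 genes. The anti-PD-1 main effect called none, nor any other gene (0%), with no member at an unadjusted p under 0.05 and none by DESeq2. The interaction of the 2 agents called none, nor any other gene (0%), with 1 member (Etv5) at an unadjusted p under 0.05 and none by DESeq2.

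Most members had positive log2 fold changes with entinostat, without passing the test. In the combination against control 28 of 36 were positive with a median of 1.13, where the median of all tested genes was 0.05. In entinostat against control 27 were positive with a median of 1.15, where all genes had 0.00. In anti-PD-1 against control 25 were positive with a median of 0.49, where all genes had −0.00. For the entinostat main effect 29 were positive with a median of 0.82, where all genes had 0.02. By cell type, that median was 1.15 over the general epithelial genes, 0.92 over the type 1 genes, 0.85 over the type 2 genes and −0.91 over the 6 tested airway genes, of which 4 were negative. The airway direction rested on single libraries: without control library 2 all 6 airway genes were positive with a median of 1.31, and without anti-PD-1 library 2 the median was 0.12 with 4 positive. The mean airway score (log2 CPM) was 2.02 ± 1.75 in the combination, 3.24 ± 1.05 with entinostat, 2.27 ± 4.20 with anti-PD-1 and 0.81 ± 4.85 in controls (SD, n = 3 each). By this score both groups with entinostat were above controls, while the combination was below anti-PD-1. The median airway fold changes against control were nevertheless −1.20 for the combination and −0.34 for entinostat. The airway direction thus also depended on the measure. For the anti-PD-1 main effect 25 were positive with a median of 0.20. These medians moved with control library 2. Without it 33 members were positive in each of the first 4 of these contrasts, with medians of 3.33 for the combination, 3.81 for entinostat and 3.19 for anti-PD-1 against control and 2.12 for the entinostat main effect, and 34 were positive with 1.53 for the anti-PD-1 main effect. Without anti-PD-1 library 2 the median for anti-PD-1 against control was −0.35, with 12 positive, and that of the anti-PD-1 main effect was −0.24, with 15 positive. Groups that did not overlap were few. All combination libraries were above all controls for 3 of the 36 members (Etv5, Cldn4 and Emp2) and below for none, where 31.9% of all tested genes had groups without overlap. With entinostat 2 were above (Etv5 and Cldn4), where the share of all genes was 28.8%. With anti-PD-1 there were none, where it was 17.5%, and between the 6 libraries with and the 6 without entinostat there were none, where it was 4.33%.

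The members singled out here were named after their values were seen. Cldn4 averaged 3.45 ± 2.49 CPM in the libraries with entinostat and 0.658 ± 0.659 CPM in those without (SD, n = 6 each). Its log2 fold change in the entinostat main effect was 2.43 (SE 0.86, edgeR adjusted p = 0.0879), and it was 3.26 (SE 1.26, adjusted p = 0.141) for entinostat against control and 2.59 (SE 1.225, adjusted p = 0.177) for the combination against control. Emp2 averaged 26.3 ± 13.5 CPM with entinostat and 9.93 ± 6.83 CPM without, with a main effect of 1.43 (SE 0.54, edgeR adjusted p = 0.103). Krt18 averaged 15.0 ± 6.38 CPM with entinostat and 6.35 ± 5.53 CPM without, with a main effect of 1.23 (SE 0.63, edgeR adjusted p = 0.217). Scgb3a1, Cav1 and Cldn3 were nearer to the threshold than Krt18 in the main effect, with edgeR adjusted p-values of 0.174, 0.194 and 0.210. Cav1 and Cldn3 had positive values there, but Scgb3a1 had a negative value of −3.22 (SE 1.48). Without control library 2 the value of Scgb3a1 was positive, like those of all tested airway genes. Etv5 averaged 5.12 ± 1.70 CPM in the combination, 7.36 ± 3.59 CPM with entinostat, 6.47 ± 4.13 CPM with anti-PD-1 and 1.80 ± 1.42 CPM in controls (SD, n = 3 each). Its log2 fold change against control was 1.51 (SE 0.70, edgeR adjusted p = 0.171) in the combination, 2.03 (SE 0.71, adjusted p = 0.112) with entinostat and 1.85 (SE 0.71, adjusted p = 0.251) with anti-PD-1. Single libraries moved these values without giving a call. Cldn4 for entinostat against control was 4.72 without control library 2 and 2.32 without entinostat library 2, and for the combination against control 4.05 without control library 2. Without that library Etv5 was 2.30 in the combination, 2.83 with entinostat and 2.64 with anti-PD-1, and without control library 1 it was 1.06 in the combination. The interaction for Etv5 was −2.37 (SE 0.98, edgeR adjusted p = 0.813). Grhl2, at 2.25 (SE 1.35, edgeR adjusted p = 0.459) for anti-PD-1 against control, rested on 1 library: without anti-PD-1 library 2 the value was −0.92.

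Control library 2 decided whether entinostat passed for several members. Without it, 6 members were called higher in the combination against control and in the entinostat main effect (Sftpc, Aqp5, Cyp2f2, Krt19, Cdh1 and Cldn18), where 3.44% and 3.58% of 17830 genes were called higher. In entinostat against control 2 were called (Aqp5 and Krt19), where 0.83% of genes were called higher. In the main effect the edgeR adjusted p-values were then between 0.0160 for Aqp5 and 0.0489 for Sftpc. With that library all 6 missed the threshold; for Krt19 the values were 5.37, 3.45 and 2.16 CPM in the combination, 6.92, 8.46 and 2.54 CPM with entinostat, 0.401, 4.34 and 3.11 CPM with anti-PD-1, and 0.0391, 5.48 and 0.202 CPM in controls. The remaining controls, libraries 1 and 3, are 2 of the 3 with the least alveolar RNA.

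**Figure D3:**
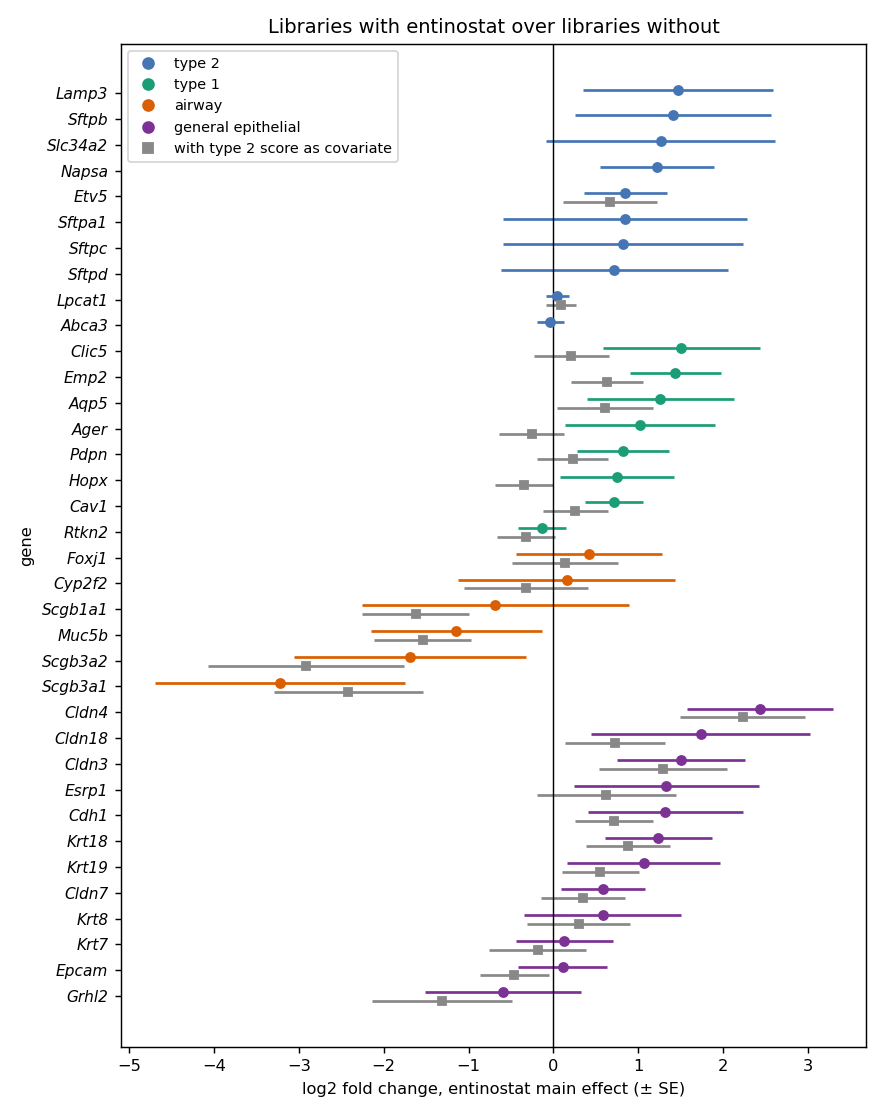
Log2 fold changes of the 36 tested members for the entinostat main effect, libraries with entinostat over those without, with standard errors as bars; coloured points are from the group comparison, grey squares from the fit with the alveolar type 2 score as a covariate (not drawn for the 8 genes of the score). Cldn4 stays above 2 in both, most type 1 genes move towards 0 with the score, and the secretoglobins lie below 0.

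Because the amount of alveolar RNA varied within each group, the members were also tested for change with the type 2 score among libraries of the same group, in a fit with a mean per group and the score. The slope is the log2 change of a gene for each unit of the score, a unit being a doubling of the geometric mean level of its genes. Score and genes were measured in the same libraries. Of the 28 tested members outside the score, 9 were called, all with positive slopes, where 0.54% of 17418 genes were called, 0.499% with positive and 0.0402% with negative slopes. They were the type 1 genes Ager (0.78, SE 0.09, edgeR adjusted p = 0.00209), Clic5 (0.77, adjusted p = 0.00394) and Hopx (0.55, adjusted p = 0.00686). The airway genes Scgb1a1 (1.54, SE 0.18, adjusted p = 0.00275), Cyp2f2 (1.11, adjusted p = 0.0280) and Muc5b (0.72, adjusted p = 0.0423) were also called. So were Cldn18 (1.27, SE 0.17, adjusted p = 0.00727), Krt19 (0.74, adjusted p = 0.0162) and Cdh1 (0.70, adjusted p = 0.0140). The genes of the score itself had slopes from 0.04 for Abca3 and 0.48 for Napsa to 1.498 for Sftpa1, so a slope of 1 stands for their geometric mean and not for each gene. These calls rested on control library 2: without it none of the 9 was called, with slopes between 0.54 for Krt19 and 1.38 for Scgb1a1 and adjusted p-values from 0.0515 for Ager to 0.449 for Muc5b. Over the 12 fits that each left out a single library, Ager, Hopx, Clic5, Scgb1a1 and Cldn18 were called in 11, Cdh1 in 10, Krt19 in 9, and Cyp2f2 and Muc5b in 3 each.

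**Figure D4:**
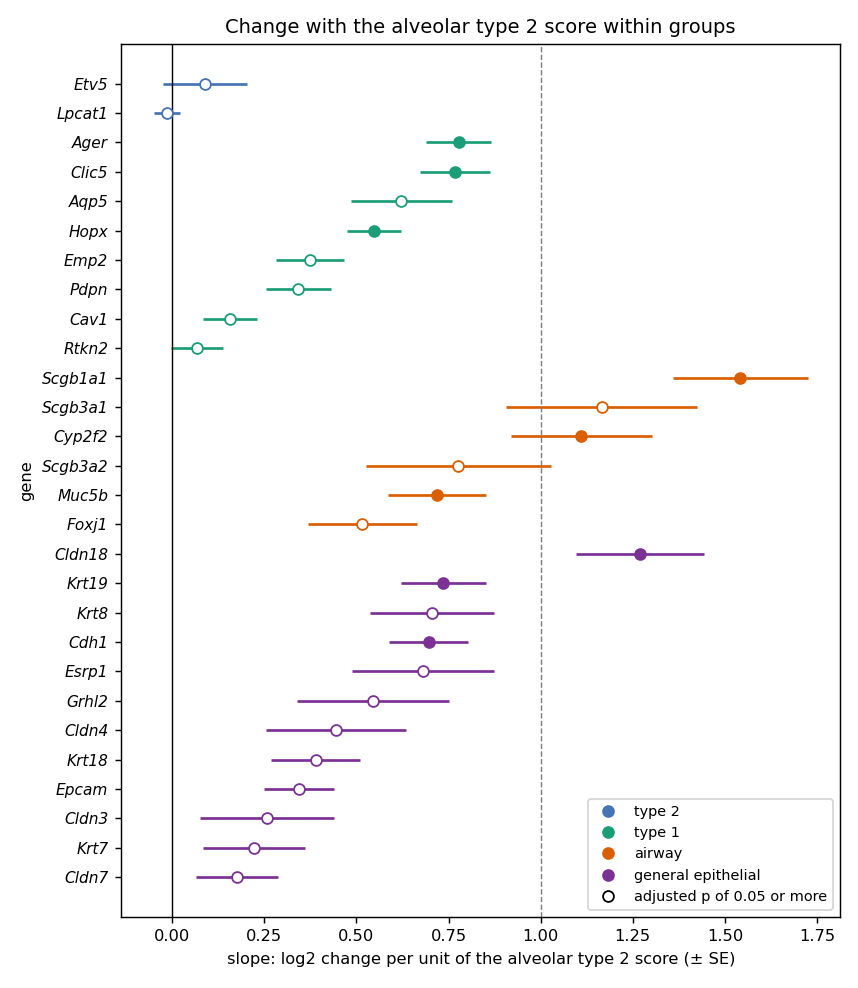
Slopes on the alveolar type 2 score, in log2 change per unit of score with standard errors, for the 28 tested members outside the score; filled points had an adjusted p under 0.05. Lpcat1, Rtkn2 and Etv5 lie near 0, the keratins and most claudins between 0.18 and 0.74, and Scgb1a1 and Cldn18 above 1.

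The simple keratins and most adhesion genes had smaller slopes that did not pass, namely Krt8 at 0.71 (SE 0.17, edgeR adjusted p = 0.124), Krt18 at 0.39, Epcam at 0.34, Krt7 at 0.22, Cldn4 at 0.44, Cldn3 at 0.26 and Cldn7 at 0.18. Esrp1 had 0.68 and Grhl2 0.55, with adjusted p-values of 0.204 and 0.411. Lpcat1 had −0.02 (SE 0.04), Rtkn2 0.07 (SE 0.07), Etv5 0.09 (SE 0.11) and Cav1 0.16 (SE 0.07), with adjusted p-values from 0.557 for Cav1 to 0.968 for Lpcat1. Abca3 belongs to the score and so has no test, and its slope was 0.04. With the score built from 6 type 1 genes instead (Ager, Rtkn2, Aqp5, Hopx, Pdpn and Clic5), which leaves the type 2 genes free to be tested, 11 of 30 members were called, all positive, where 0.431% of genes were called, 0.413% positive and 0.0172% negative. They included 6 type 2 genes, among them Sftpc with a slope of 2.78 (SE 0.23, edgeR adjusted p = 0.000449) and Sftpb with 1.99 (SE 0.17, adjusted p = 0.000449), and also Scgb1a1, Cyp2f2, Krt19, Cdh1 and Cldn18. Without control library 2, Sftpc and Sftpb were the 2 still called, where 0.0337% of genes outside the score were called. Slopes of the others stayed positive, for example 2.82 for Sftpa1 (adjusted p = 0.0562), 2.30 for Cldn18 and 2.63 for Scgb1a1. Abca3, now testable, had 0.06 (SE 0.08, adjusted p = 0.959). With a score of 4 airway genes (Scgb1a1, Scgb3a1, Scgb3a2 and Cyp2f2), chosen after the data had been seen, 13 of 32 members were called, all positive, where 0.476% of genes were called, 0.465% positive and 0.0115% negative. Without control library 2 none was called, where 0.00561% of genes outside the score were called, with slopes such as 0.62 for Cdh1 and 1.02 for Cldn18. E-cadherin had the smallest adjusted p among them, with a slope of 0.59 (SE 0.05, edgeR adjusted p = 0.00160).

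**Figure D5:**
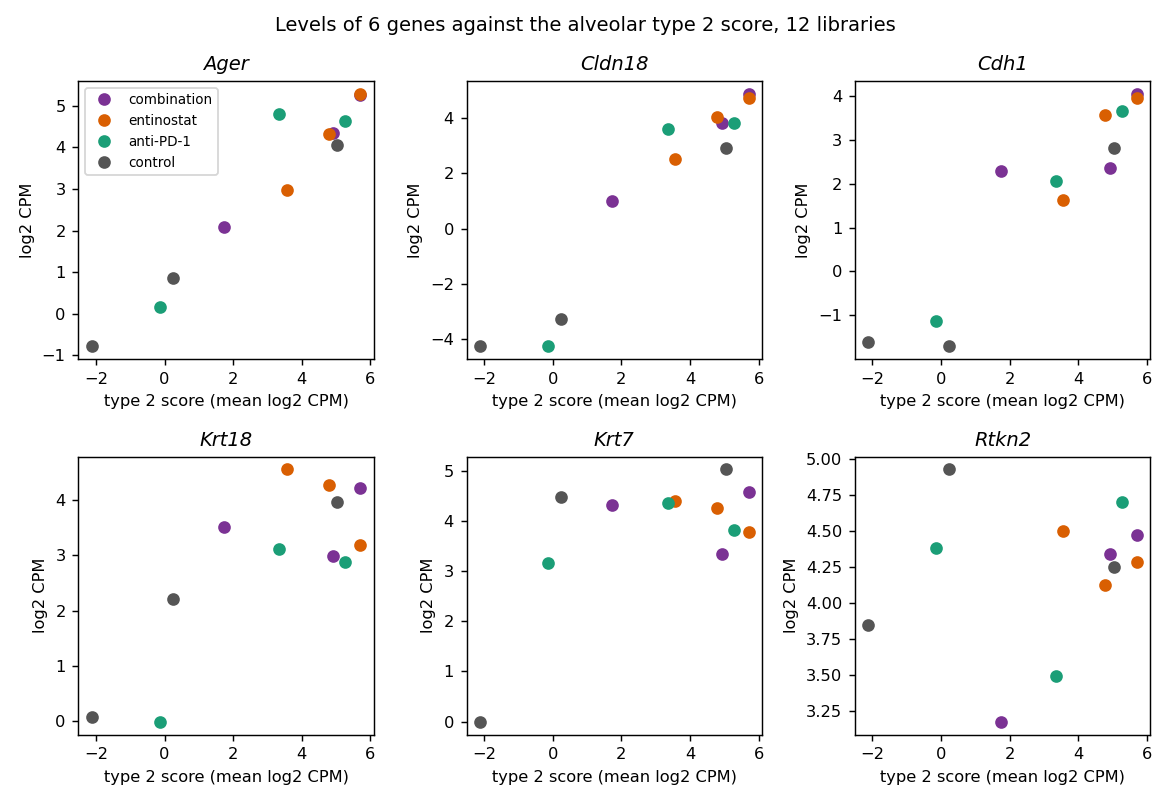
Log2 CPM of Ager, Cldn18, Cdh1, Krt18, Krt7 and Rtkn2 against the alveolar type 2 score (mean log2 CPM of its 8 genes), a point per library, coloured by group. Ager and Cldn18 are lower in the 3 libraries with the lowest scores than in the other 9, Krt7 is low in control library 1 only, and Rtkn2 shows no trend.

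Genes of the alveolar and airway lists did not vary in a fixed ratio. Among the 9 libraries with at least 100 counts of both genes, the ratio of Sftpc to Ager counts lay between 1.31 in combination library 3 and 12.1 in control library 2. The ratio of Scgb1a1 to Sftpc counts lay between 0.0195 in combination library 2 and 1.16 in control library 2, a 59.2-fold range. The ratio of Cldn18 to Sftpb counts, over 8 libraries, lay between 0.240 in control library 2 and 1.10 in anti-PD-1 library 3, a 4.59-fold range.

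With the type 2 score added to the group comparison as a covariate, edgeR called no member in any of the 6 comparisons, and DESeq2 was not run with it. In the entinostat main effect 1.97% of genes outside the score were called, 0.689% higher and 1.28% lower, against 10.6% without the covariate. In the combination against control it was 3.23%, 1.03% higher and 2.2% lower. For entinostat against control it was 0%, against 5.27% without the covariate. The share was 0.00574% for anti-PD-1 against control, and 0% for the anti-PD-1 main effect and for the interaction. For the entinostat main effect with the covariate, Cldn4 had 2.23 (SE 0.74, edgeR adjusted p = 0.118), nearly as large as without the score. Emp2 there had 0.64 (SE 0.42, adjusted p = 0.408) and Krt18 0.88 (SE 0.49, adjusted p = 0.322). In the main effect, unadjusted p-values under 0.05 were those of Cldn4 and of 4 airway genes with negative values, Scgb1a1 at −1.62 (SE 0.63, edgeR adjusted p = 0.167), Scgb3a1 at −2.41, Scgb3a2 at −2.91 and Muc5b at −1.54. Single libraries were not left out of the fit with the covariate. Without the covariate, the airway genes turned positive in this comparison when control library 2 was left out.

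Markers of other cell types also differed between libraries. The 9 neuroendocrine markers summed to 328 to 642 CPM in the combination, 397 to 821 CPM with entinostat, 671 to 1183 CPM with anti-PD-1 and 831 to 1721 CPM in controls. They did not follow the type 2 score among the controls, where library 1 had 1721, library 2 had 1400 and library 3 had 831 CPM. Libraries 1, 2 and 3 with anti-PD-1 had 1183, 671 and 861 CPM, falling as the score rose. Those with entinostat had 529, 397 and 821 CPM, highest at the lowest score. Those of the combination had 328, 642 and 630 CPM, lowest at the highest score. In the entinostat main effect all 9 had negative log2 fold changes, and 2 fell, Uchl1 by 1.15 on the log2 scale (SE 0.27, edgeR adjusted p = 0.0249) and Calca by 2.75 (SE 0.76, adjusted p = 0.0414), the gene whose promoter drives Cre in this model. With single libraries left out, Uchl1 passed in 7 of 12 fits and Calca in 3. Markers of alveolar macrophages (8 of 10 tested) summed to 18.4 to 208 CPM in the combination, 65.9 to 175 CPM with entinostat, 20.4 to 176 CPM with anti-PD-1 and 4.99 to 86.7 CPM in controls. Of the 8, 3 were called with the type 2 score, including Chil3, a secreted protein of these cells (slope 1.26, SE 0.08, edgeR adjusted p = 1.72e-05), where 0.499% of all genes were called with positive slopes. Chil3 passed in all 12 fits that left out a single library. The part of these cells in the results was not tested.

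Related genes were counted from other lists in the same way. The transitional, mesothelial and other type 1 lists share genes with the 37 (Krt7, Krt8, Krt19 or Cldn4), so Krt19 below repeats a call already given. Called with positive slopes on the type 2 score, where 0.499% of all genes were, were 4 of 15 other type 2 genes (Hc, Cxcl15 and Chia1 with the smallest p-values), 3 of 11 other type 1 genes, 2 of 9 other secretory genes, 1 of 10 lung epithelial transcription factors (Ehf), 1 of 15 epithelial regulators (Ehf again), 2 of 11 genes of Krt8-high transitional cells (Krt19 and Itgb6), 1 of 10 endothelial, 1 of 10 fibroblast and mural (Inmt), 1 of 6 mesothelial (Krt19), 1 of 5 muscle, cardiac and adipose (Myh6, a heart gene) and 2 of 7 lymphocyte and neutrophil genes. None was called among 19 junction genes (10 at an unadjusted p under 0.05), 12 other ciliated genes (2), 4 basal genes (0), 5 epithelial repressors (0) and the 9 neuroendocrine genes (3) by edgeR. The share of all genes at that unadjusted cut is not given, so the counts in brackets are not set against it. Without control library 2 only 6 of 17822 genes (0.0337%) were called on this slope, so most of the calls counted here did not hold. In the entinostat main effect, where 10.6% of all genes were called, Cebpa, a transcription factor also used by type 2 cells, rose by 1.39 on the log2 scale (SE 0.39, edgeR adjusted p = 0.0454). Cgn, the junction protein cingulin, rose by 1.46 (SE 0.42, adjusted p = 0.0456), the only call among 19 junction genes, and Dnah11, an axonemal dynein, by 0.67 (SE 0.19, adjusted p = 0.0411), the only call among 12 ciliated genes. The fatty acid carrier Fabp5 fell by 0.99 (SE 0.21, adjusted p = 0.0182). With single libraries left out, Fabp5 passed in 11 of 12 fits, Cgn in 3, Dnah11 in 2 and Cebpa in 1. In the combination against control, where 3.88% of all genes were called higher, 2 of 5 epithelial repressors rose. Snai1 had 2.14, 0.880 and 5.86 CPM in the combination and 0.157, 0.290 and 0.455 CPM in controls (log2 fold change 3.29, SE 0.88, edgeR adjusted p = 0.0365), and Twist1 had 2.63, 0.604 and 7.62 CPM in the combination and 0.391, 0.166 and 0.202 CPM in controls (3.81, SE 1.03, adjusted p = 0.0369). Both were highest in combination library 3, the library of that group with the lowest type 2 score. With single libraries left out, Snai1 passed in 7 of 12 fits and Twist1 in 6. Neither passed without combination library 1 or 3, or when any 1 control library was left out. The 5 repressors summed to 115 to 142 CPM in the combination and 97.4 to 198 CPM in controls. Zeb1 and Zeb2, given below, weigh far more in this sum than Snai1 and Twist1, so it cannot show a rise of these 2. In the same comparison 3 of 10 fibroblast and mural genes rose (Pdgfra, Pdgfrb and Cspg4), and 2 in the entinostat main effect. Their list summed to 175 to 270.5 CPM in the combination and 95.9 to 203 CPM in controls, with the highest sum, and the highest Pdgfra at 94.95 CPM, in combination library 3. The part of these cells in the repressor values was not tested. The repressor Zeb1 lay between 48.0 and 98.1 CPM, and Zeb2 varied more, between 17.7 CPM in control library 2 and 136 CPM in control library 1.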

How the data were processed

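The 12 RNA-seq libraries of dissected tumour were grouped by their titles, 3 per group. For the combination, the title gives both agents but the treatment tag gives just the antibody; the title was used. All carry batch label 2. The file holds raw counts of each gene as deposited by the authors, and every column was used. Per the submitters' processing notes, mm9 was the mouse build, and the tools were R 3.5.1, DESeq2 1.22.2, STAR 2.5.4a, Trimmomatic 0.36 and Trim Galore. No label or header states the annotation, strand or handling of multiply mapped reads, so genes with close relatives, such as keratins, are less certain. Between 65.3% and 77.2% of counts from 1 to 20 in a library are even, so both mates of a read pair may have been counted; halved counts are an alternative.

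Counts were fitted in R 4.3.3 with edgeR 4.0.16 (filterByExpr, TMM factors, quasi-likelihood F test with robust estimation) as a mean per group over all 12 libraries; 36 of 37 members passed the filter. Log2 CPM values have a prior count of 2. The 6 group comparisons and the slopes on 3 scores were each adjusted over all tested genes by Benjamini-Hochberg at 0.05. Exon lengths come from GENCODE M21 and promoters from RefSeq, both of build GRCm38, and neither was used to place reads. No pair of the 66 agreed within sampling noise (lowest chi-square per degree of freedom 32.1). Values in every library are given for the 4 members of each cell type with the highest mean CPM, and for others singled out after their values were seen. From the 17 other marker lists, up to 3 called genes with the smallest adjusted p were to be named; some that this takes are given as counts. 1 gene of the neuroendocrine list is not reported here and was left out of its sums and counts. The members and lists were chosen with earlier results of these data known. Alternatives were RLE and upper quartile factors, no count filter, DESeq2 1.42.0, a replicate block, halved counts, the type 2 score as a covariate, and leaving out each library. The scripts were tested on simulated data.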

Additional observations from a re-analysis of the deposited data

How the results depend on the processing

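Counts of members called were 0 in all 6 group comparisons and stayed 0 in every setting run for anti-PD-1 against control, the anti-PD-1 main effect and the interaction. DESeq2 called 2 of 36 members for entinostat against control, where it called 13.7% of all genes, and 2 for the entinostat main effect, where it called 19.6%. For the slopes on the type 2, type 1 and airway scores it called 19, 20 and 20 members, where it called 3.51%, 2.62% and 1.57% of all genes, against 9, 11 and 13 members by edgeR. Leaving out single libraries gave 0 to 6 members for the combination against control, 0 to 2 for entinostat against control and 0 to 6 for the entinostat main effect. The highest in each was without control library 2, where 9.87%, 2.96% and 8.98% of all genes were called. Leaving out single libraries gave 0 to 9 for the type 2 slope, 2 to 12 for the type 1 slope and 0 to 13 for the airway slope. The lowest in each was without control library 2, where 0.0337%, 0.0337% and 0.00561% of genes outside the score were called. Grhl2 for anti-PD-1 against control turned to −0.92 without anti-PD-1 library 2 and was 2.81 without control library 2. With no low count filter the airway slope called 7, where 0.323% of genes outside the score were called. The cause of these changes was not tested.

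Replicate numbers do not pair the libraries: of 18 correlations between same-numbered libraries, from −0.29 to 0.23, 8 were over 0.1, and 1 of 12 libraries correlated best with its own number. With the replicate block the slopes called 4, 7 and 1 members, where 0.109%, 0.161% and 0.0344% of genes outside the score were called. In the group comparisons all genes called with the block were 1087 for the combination against control, 321 for entinostat against control, 0 for anti-PD-1 against control and 974 for the entinostat main effect. Without the block they were 2033, 919, 1 and 1849, and with DESeq2 3591, 2396, 704 and 3422. DESeq2 also called 103 genes for the anti-PD-1 main effect and 60 for the interaction, where edgeR called 0. Upper quartile factors gave 561 for entinostat against control. With them the median over all genes was 0.28 for the combination, 0.20 for entinostat and 0.17 for anti-PD-1 against control. Low counts limit some members in the libraries with little epithelial RNA, such as Cyp2f2 and Cldn18 at 0 CPM in control library 1.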
